A study of Mus musculus with 26 samples.

Results

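The genes of polyamine synthesis and its control were followed in NIH3T3, a long-established fibroblast line from mouse embryos, under heat, oxidative and osmotic stress. The members were 8 genes chosen by symbol: Odc1, Azin1, Oaz1, Oaz2, Amd1, Srm, Sms and Sat1. All 8 were among the 20430 symbols of the RNA tables and the 19941 symbols of the footprint tables, and all 8 passed the filter on low counts in each fit. PolyA-selected RNA was sequenced in 16 libraries, and ribosome footprints, the stretches of mRNA covered by ribosomes, in 10 libraries. Each group had 2 libraries, labelled as replicates 1 and 2. Heat was applied at 44 °C for 2 h or at 42 °C for 8 h and had its own control, with RNA libraries only. Oxidative stress was H2O2 and osmotic stress was KCl, each for 2 h or 7 h, and they shared a control. Both kinds of library covered that second experiment, and no dose was stated in the labels. All groups were the same cell line with no genetic change named. Nothing in the labels says whether replicates were separate cultures, so the p-values measure only the spread between these libraries, which may be technical.

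Polyamines are small, positively charged molecules that bind RNA and DNA, and growing fibroblasts need them. Ornithine decarboxylase (Odc1) makes putrescine, S-adenosylmethionine decarboxylase (Amd1) makes the aminopropyl donor, and spermidine synthase (Srm) and spermine synthase (Sms) use that donor to build spermidine and spermine. Spermidine/spermine N1-acetyltransferase (Sat1) starts their breakdown and export. The antizymes (Oaz1, Oaz2) bind ornithine decarboxylase, send it to the proteasome without ubiquitin and lower polyamine uptake, while antizyme inhibitor (Azin1) resembles the decarboxylase, lacks its activity and takes the antizymes away from it. Several of these genes are regulated in translation: the antizymes need a ribosomal frameshift that polyamines favour, and Amd1 carries a very short upstream reading frame at which polyamines stall ribosomes.

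The upstream reading frame of Amd1 is shown first because it is a translational control element short enough to read whole. It was found by a search for an ATG with an in-frame stop within the 50 transcribed bases of the RefSeq window of the gene (GRCm38.p6). It runs over 21 bases, from base 14 to base 34 after the start site, at chr10:40302155-40302175 on the minus strand, and has 6 codons before its stop. The start and stop codons are in capitals.
Amd1 upstream reading frame: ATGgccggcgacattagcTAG
Of all 27025 windows in that table, 11.5% held such a frame in their first 50 bases, and Amd1 was the only member with one among the 6 of 8 members with a window. The deposited counts are per gene, so footprints on this frame cannot be read from them. Whether the footprint counts cover the whole transcript or only the main coding sequence was not tested. The counts do not separate the 2 reading frames of an antizyme mRNA either.

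Amd1 and Sat1 were the members whose RNA and footprints both rose at both times of KCl, as described further on, and their promoters are therefore given. Each is the 250 bases before the RefSeq start site, read on the strand of the gene. The window of Amd1 lies at chr10:40302189-40302438 on the minus strand and has a GC content of 64.4%, and that of Sat1 at chrX:155216450-155216699 on the minus strand with 59.6%.
Amd1 promoter: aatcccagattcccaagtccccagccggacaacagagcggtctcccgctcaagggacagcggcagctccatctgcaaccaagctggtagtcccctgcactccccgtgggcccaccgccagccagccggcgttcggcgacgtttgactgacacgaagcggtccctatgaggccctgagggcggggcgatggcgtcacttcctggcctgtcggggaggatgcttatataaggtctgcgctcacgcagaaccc
Sat1 promoter: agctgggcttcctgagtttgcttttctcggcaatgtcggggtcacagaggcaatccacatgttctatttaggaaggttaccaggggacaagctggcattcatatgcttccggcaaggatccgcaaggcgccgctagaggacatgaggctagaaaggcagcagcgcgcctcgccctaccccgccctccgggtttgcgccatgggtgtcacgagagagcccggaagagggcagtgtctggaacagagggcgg
Neither window held an exact match to any of the 7 motifs searched on both strands, so no base is in capitals. The Amd1 window does hold tatataag near its end, a TATA-like stretch that the exact search for TATAAA could not match. The motifs were CACGTG (an E-box, in 7.24% of all windows), TGACNNNGC (the core of the antioxidant response element, 12.5%), TGATGNAA (the ATF4 and C/EBP composite site, 4.06%), TTCNNGAA (paired heat shock elements, 8.40%), TGACGTCA (the full cyclic AMP response element, 1.88%), TATAAA (the TATA box, 14.2%) and TGGAAA (an NFAT core, 21.5%, added after the values were seen). TGACGTCA is palindromic, as are CACGTG and TTCNNGAA, and none of the other motifs holds another whole. Among the members with a window, Sms held an E-box at -196 relative to the start site. Oaz1 held an antioxidant core at -13 and the letters TATAAA at -3, which run over the start site. These are matches of letters, not measured binding.

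In the RefSeq table of GRCm38.p6 the members lie on 6 chromosomes. Odc1 spans chr12:17544808-17551502, Azin1 chr15:38487430-38519294, Oaz1 chr10:80826656-80829290 and Oaz2 chr9:65676548-65690300. Amd1 spans chr10:40287458-40302188, Srm chr4:148591513-148594619, Sms chrX:157443851-157492287 and Sat1 chrX:155213126-155216449. All 8 are annotated as protein coding.

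RNA libraries held 24441877 to 45244430 counts and footprint libraries 1460751 to 5168537, the lowest being replicate 1 of 2 h of H2O2. All 8 fibroblast markers on the list used were at 1 TPM or more in every RNA library (summed level 4147 to 11276 TPM). Those of epithelium summed to 7.89 to 19.6 TPM, of endothelium to 0.34 to 3.18, of blood to 5.33 to 44.7 and of muscle to 0.03 to 5.58. TPM is a level per length scaled to the library, so TPM levels can be compared between genes. Fold changes are on the log2 scale from counts scaled by TMM, a scaling to each library's bulk of genes, with the standard error (SE) of the fit, n = 2 libraries per group. A gene was called at a Benjamini-Hochberg adjusted p under 0.05 in edgeR's quasi-likelihood test over all genes tested. In these bulk samples, fewer cells that express a gene and less RNA per cell cannot be told apart.

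Ornithine decarboxylase RNA and footprints parted early in both stresses: at 2 h footprints fell while RNA rose slightly. Odc1 RNA stood at 229 and 247 TPM in the control and at 304 and 309 TPM after 2 h of H2O2. It reached 726 and 767 TPM after 7 h of H2O2, the highest of all 8 RNA groups. After KCl it was 248 and 263 TPM at 2 h and 235 and 231 TPM at 7 h. The H2O2 libraries lay above both control libraries at both times, and those of 7 h of KCl lay within the control range.

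Odc1 footprints did not follow that order. They were at 167 and 181 TPM in the control, and at 38.6 TPM (84 counts) and 88.2 TPM (662 counts) after 2 h of H2O2. After 2 h of KCl they were at 46.4 and 45.9 TPM, so that all 4 libraries of the early time points lay below both controls. At 7 h they were at 467 and 395 TPM with H2O2, above the controls, and at 130 and 94.1 TPM with KCl, below them.

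In the test, Odc1 RNA rose by 0.37 ± 0.06 (SE, adjusted p = 0.000164) at 2 h and by 1.73 ± 0.06 (adjusted p = 8.14e-12) at 7 h of H2O2. At 2 h of KCl it rose by 0.20 ± 0.06 (adjusted p = 0.0127), a call lost without control replicate 1 (0.15, adjusted p = 0.116), without KCl replicate 2 (0.16, adjusted p = 0.0779) and on TPM (0.10, adjusted p = 0.139). Footprints fell by 1.35 ± 0.29 (adjusted p = 0.0353) at 2 h of H2O2 and fell by 1.86 ± 0.30 (adjusted p = 0.00344) at 2 h of KCl, a level 3.64-fold lower. They then rose by 1.19 ± 0.29 at 7 h of H2O2 (adjusted p = 0.00745). Without control replicate 1, control replicate 2 or H2O2 replicate 1, the footprint change at 2 h of H2O2 kept its direction at -1.44, -1.26 and -0.92 but was no longer called (adjusted p = 0.0867, 0.133 and 0.0995). It was also lost with only the groups compared in the fit (adjusted p = 0.194) and on TPM (adjusted p = 0.066), and was -2.12, still called, without H2O2 replicate 2. The rise at 7 h of H2O2 was 1.05 without control replicate 1 (adjusted p = 0.0581) and 1.08 without H2O2 replicate 1 (adjusted p = 0.0591).

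Translational efficiency is the footprint change beyond the RNA change, tested as an interaction over the 20 libraries of the H2O2 and KCl experiment. For Odc1 it fell by 1.73 ± 0.31 (adjusted p = 0.00212) at 2 h of H2O2 and by 2.07 ± 0.31 (adjusted p = 0.00037) at 2 h of KCl, a level 4.20-fold lower. Both calls held in all 16 alternatives run, with adjusted p between 9.86e-06 and 0.0441 for H2O2 and between 1.25e-07 and 0.00476 for KCl. At 7 h the values were -0.52 ± 0.30 (adjusted p = 0.308) and -0.65 ± 0.31 (adjusted p = 0.231). The ratio of footprint TPM to mean RNA TPM was 0.703 and 0.761 in the control, 0.126 and 0.287 after H2O2 for 2 h, and 0.182 and 0.180 after KCl for 2 h. At 7 h it was 0.626 and 0.529 with H2O2 and 0.557 and 0.404 with KCl, above all 4 early libraries and below both controls. The efficiency fit used 1 estimate of spread per gene for both kinds of library. Its SE could therefore be smaller than that of footprints alone, as for Oaz2 at 2 h of KCl (0.24 against 0.28). Efficiency p-values may thus look firmer than the footprints alone allow.

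The return of Odc1 between 2 h and 7 h was tested directly. With H2O2, footprints rose by 2.54 ± 0.30 (adjusted p = 5.61e-05) and efficiency by 1.20 ± 0.31 (adjusted p = 0.0274) from 2 h to 7 h. With KCl, footprints rose by 1.26 ± 0.30 (adjusted p = 0.0115) and efficiency by 1.42 ± 0.32 (adjusted p = 0.0137). RNA with KCl was at -0.13 ± 0.06 and was not called (adjusted p = 0.0816), but it passed as a fall with DESeq2 (-0.14, adjusted p = 0.0495). The efficiency call with H2O2 was lost in 7 of 16 alternatives, among them each omission of a 7 h footprint library and of any of the 4 RNA libraries (adjusted p = 0.0606 to 0.109). Without footprint replicate 2 of 2 h it was 2.01 (adjusted p = 0.000599). That with KCl was lost without footprint replicate 1 of 7 h (1.18, adjusted p = 0.0603), RNA replicate 2 of 2 h (1.39, adjusted p = 0.0501) or RNA replicate 2 of 7 h (1.40, adjusted p = 0.051). The footprint call with KCl was lost without either 2 h library (1.21 and 1.30, adjusted p = 0.065 and 0.0649) or without replicate 1 of 7 h (1.01, adjusted p = 0.103).

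**Figure D1:**
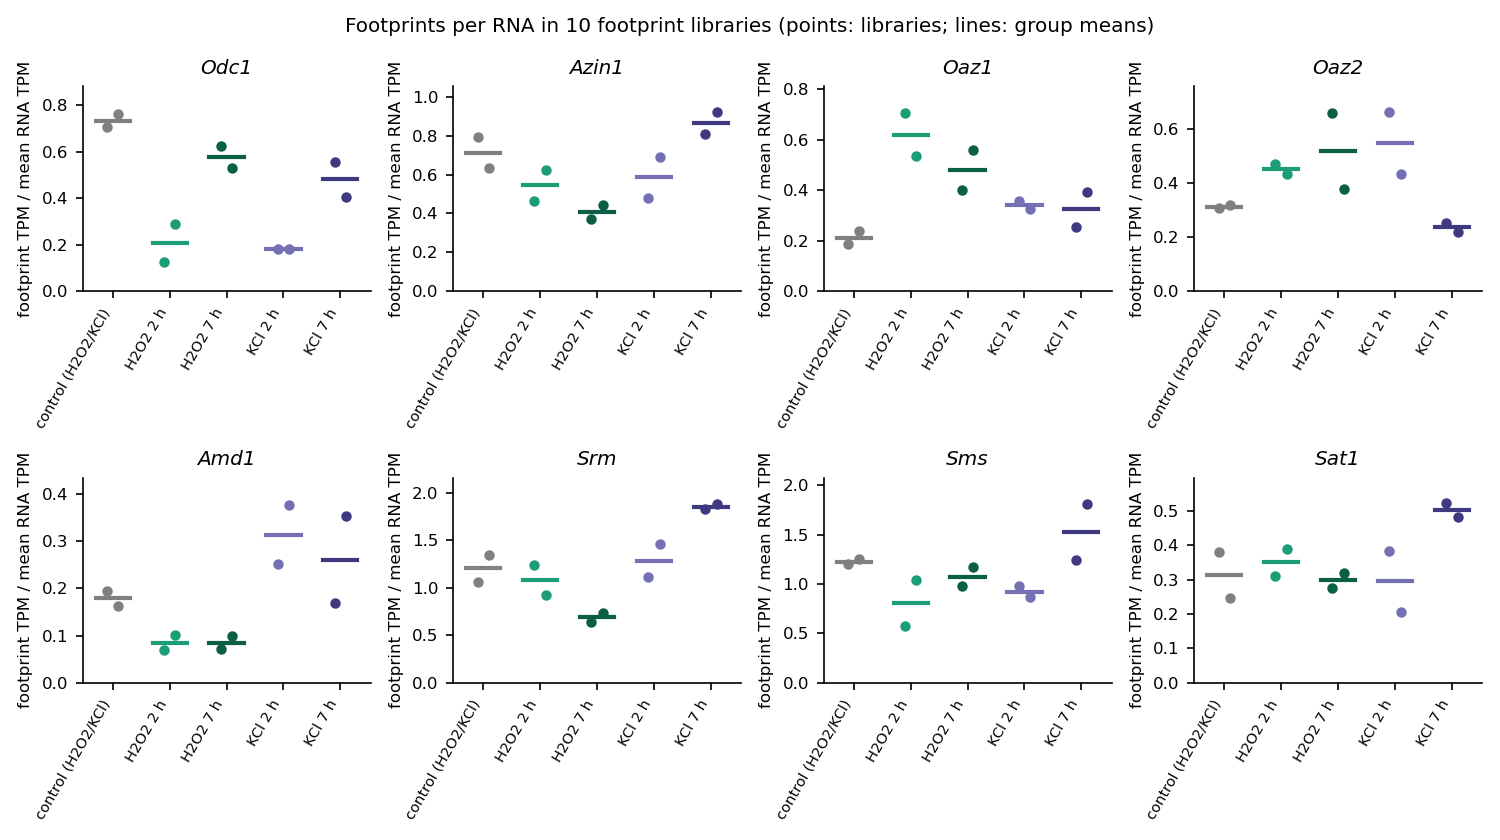
Footprint TPM of each library divided by the mean RNA TPM of its group (y axis, a ratio) for the 8 genes in the control and the 4 stress groups of the H2O2 and KCl experiment; points are the 2 footprint libraries and lines their mean. For Odc1 all 4 libraries of 2 h lie between 0.126 and 0.287 against 0.703 and 0.761 in the control, and for Oaz1 all 8 stress libraries lie above the controls. The Amd1 panel excludes footprints assigned to its near-identical copy Amd2.

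Antizyme 1, the protein that removes ornithine decarboxylase, rose in footprints at both times of H2O2, opposite to Odc1 at 2 h and in the same direction at 7 h. Oaz1 RNA was the highest of the 8 members in the control, at 781 and 842 TPM, and stayed between 631 and 884 TPM in all libraries of that experiment. Its footprints were at 151 and 193 TPM in the control, at 479 and 364 TPM after 2 h of H2O2 and at 261 and 366 TPM after 7 h. With KCl they were at 298 and 271 TPM at 2 h and at 223 and 342 TPM at 7 h. All 8 stress libraries thus lay above both controls, while the RNA of the H2O2 libraries lay below them.

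Oaz1 footprints rose by 1.35 ± 0.26 at 2 h of H2O2 (adjusted p = 0.0207) and by 0.76 ± 0.26 at 7 h (adjusted p = 0.0449). With KCl they were 0.77 ± 0.26 at 2 h (adjusted p = 0.104) and 0.75 ± 0.26 at 7 h (adjusted p = 0.0586), which did not pass. Efficiency rose by 1.56 ± 0.28 at 2 h of H2O2 (adjusted p = 0.00224), a level 2.95-fold higher, and this held in all 16 alternatives (adjusted p from 1.41e-05 to 0.0157). At 7 h of H2O2 it rose by 1.01 ± 0.28 (adjusted p = 0.0305), and with KCl it was 0.63 ± 0.28 (adjusted p = 0.155) and 0.59 ± 0.28 (adjusted p = 0.242). The 7 h efficiency call was lost in 6 of 16 alternatives. The value was 0.79 without footprint control replicate 1 (adjusted p = 0.116), 0.67 without footprint replicate 2 of 7 h (adjusted p = 0.179), and 0.97 to 1.08 without any single RNA library (adjusted p = 0.0734 to 0.0995).

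The footprint calls of Oaz1 depended on single libraries as well. At 2 h of H2O2 the value was 1.14 without control replicate 1 (adjusted p = 0.148), 1.57 without control replicate 2 (adjusted p = 0.0592) and 1.15 without H2O2 replicate 1 (adjusted p = 0.0932). It was also lost on TPM (adjusted p = 0.0604) and with only the groups compared (adjusted p = 0.0758). At 7 h the value was 0.51, 0.98 and 0.39 without control replicate 1, control replicate 2 and H2O2 replicate 2 (adjusted p = 0.28, 0.0503 and 0.423). The uncalled footprint value at 7 h of KCl passed in 5 of 11 alternatives, for example 0.74 with the replicate number as a block (adjusted p = 0.0485) and 1.02 without KCl replicate 1 (adjusted p = 0.0477).

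The RNA of Oaz1 moved little. It fell by 0.26 ± 0.06 at 2 h (adjusted p = 0.004) and by 0.24 ± 0.06 at 7 h of H2O2 (adjusted p = 0.00469), and rose by 0.20 ± 0.06 at 7 h of KCl (adjusted p = 0.0128). Without replicate 2 of each time the H2O2 values were -0.21 (adjusted p = 0.0572) and -0.19 (adjusted p = 0.0576). The KCl value was 0.15 without control replicate 1 (adjusted p = 0.115), 0.16 without KCl replicate 1 (adjusted p = 0.098) and 0.10 on TPM (adjusted p = 0.182). In mice Odc1 and Oaz1 have processed copies elsewhere in the genome, and the sources used here do not say how reads shared with them were divided.

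Set beside each other, footprints of the antizyme and of its target were near equal per length in the control and apart at 2 h. Oaz1 footprint TPM per Odc1 footprint TPM was 0.901 and 1.07 in the control, 12.4 and 4.13 after H2O2 for 2 h, and 6.42 and 5.90 after KCl for 2 h. At 7 h it was 0.559 and 0.925 with H2O2 and 1.72 and 3.64 with KCl. All 4 libraries of 2 h lay above the control. At 7 h both KCl libraries lay above it, H2O2 replicate 1 lay below it and H2O2 replicate 2 within its range. The same ratio in RNA was 3.42 and 3.42 in the control and 0.925 and 0.823 at 7 h of H2O2. With 2 libraries a group this ratio was given no test.

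Antizyme 2, a less abundant antizyme with the same frameshift, differed between the 2 times of KCl. Oaz2 footprints were at 27.2 and 28.3 TPM in the control, 69.6 and 45.6 TPM at 2 h of KCl and 22.2 and 19.5 TPM at 7 h, on 31 to 107 counts per library. Libraries of 2 h lay above the control and those of 7 h below it. Footprints rose by 1.09 ± 0.28 at 2 h (adjusted p = 0.0368) and then fell by 1.48 ± 0.30 from 2 h to 7 h (adjusted p = 0.00521).

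Oaz2 efficiency rose by 0.75 ± 0.24 at 2 h of KCl (adjusted p = 0.046), a call lost in 11 of 16 alternatives, with values from 0.46 to 0.98. Among these were the omission of any footprint or RNA library of the 2 groups other than footprint replicate 2 of KCl. The footprint rise at 2 h was lost in 7 of 11 alternatives, among them the omission of any of its 4 libraries (0.81 to 1.33, adjusted p = 0.0567 to 0.281). Efficiency fell by 1.20 ± 0.26 from 2 h to 7 h (adjusted p = 0.011), which was lost only without footprint replicate 2 of 7 h (-1.10, adjusted p = 0.0564). Oaz2 RNA rose by 0.34 ± 0.06 at 2 h of KCl (adjusted p = 0.000133) and fell by 0.30 ± 0.06 at 7 h of H2O2 (adjusted p = 0.000263).

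Antizyme inhibitor was the member whose RNA rose most at 2 h of H2O2, and it fell again by 7 h. Azin1 RNA was at 78.4 and 76.3 TPM in the control, 154 and 161 TPM at 2 h of H2O2 and 59.5 and 63.9 TPM at 7 h. With KCl it was at 66.5 and 80.3 TPM at 2 h and at 37.8 and 37.2 TPM at 7 h. Only the 2 h KCl libraries overlapped the control. RNA rose by 1.02 ± 0.08 at 2 h of H2O2 (adjusted p = 9.07e-08), fell by 0.27 ± 0.08 at 7 h (adjusted p = 0.00719) and fell by 0.95 ± 0.08 at 7 h of KCl (adjusted p = 1.25e-07).

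Azin1 footprints were at 61.2 and 48.9 TPM in the control and at 73.4 and 98.3 TPM at 2 h of H2O2, above both controls but not called (0.79 ± 0.23, adjusted p = 0.103). At 7 h of H2O2 they were at 22.9 and 27.4 TPM, a fall of 1.20 ± 0.24 (adjusted p = 0.00264) that held in all 11 alternatives. Efficiency fell by 0.92 ± 0.24 there (adjusted p = 0.0246), a call lost in 8 of 16 alternatives, with values from -1.16 to -0.74. Among these were the omission of footprint control replicate 1 (adjusted p = 0.0871), of footprint replicate 1 of 7 h (adjusted p = 0.115) and of any RNA library (adjusted p = 0.055 to 0.087). At 7 h of KCl footprints fell by 0.84 ± 0.24 (adjusted p = 0.0265), lost without control replicate 1 (-0.65, adjusted p = 0.159), without KCl replicate 1 (-0.64, adjusted p = 0.189) and on TPM (-0.74, adjusted p = 0.0639).

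**Figure D2:**
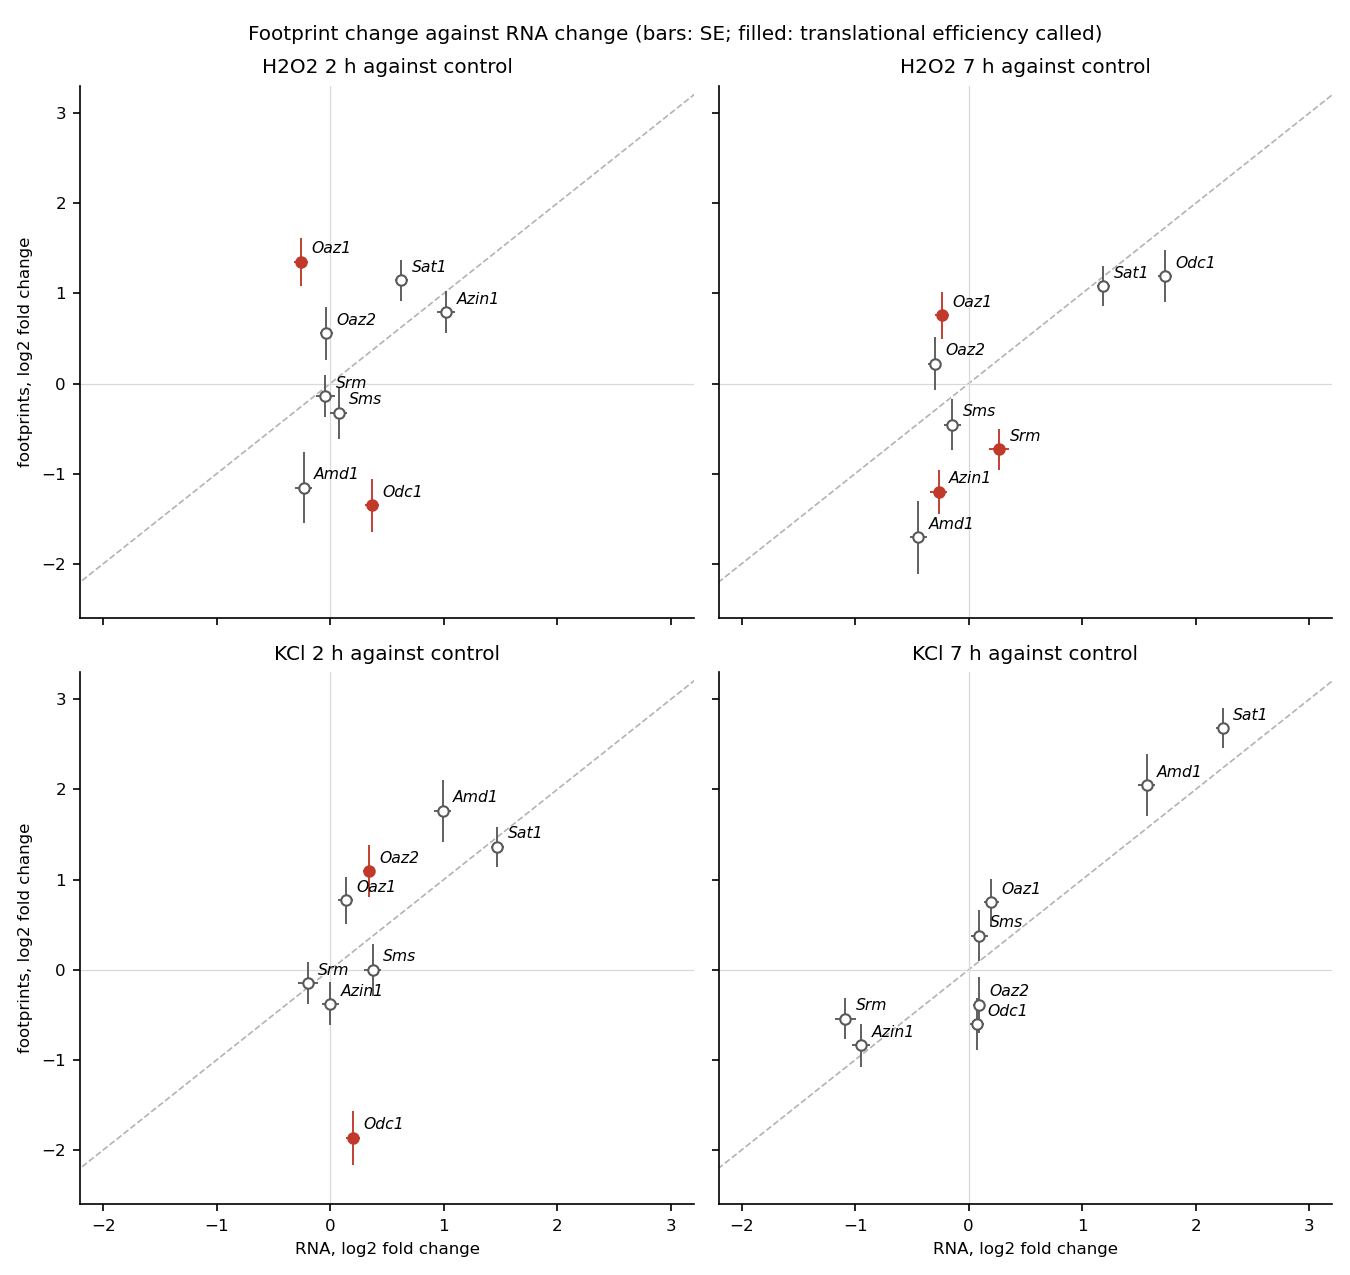
Log2 fold change of RNA (x axis) against log2 fold change of footprints (y axis) for the 8 genes at each H2O2 and KCl time point against their shared control; bars are the SE of the fit, the dashed line is equal change, and filled red points are genes whose translational efficiency was called. Odc1 lies far below the line at both 2 h time points and Oaz1 above it at both H2O2 time points, while Sat1 and Amd1 lie at the upper right at both KCl time points. Amd1 is drawn without the counts assigned to Amd2.

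S-adenosylmethionine decarboxylase RNA rose with KCl and fell with H2O2. Amd1 RNA was at 137 and 130 TPM in the control and reached 227 and 270 TPM at 2 h and 359 and 378 TPM at 7 h of KCl. After H2O2 it was at 110 and 117 TPM at 2 h and 92.5 and 93.1 TPM at 7 h, below both controls. RNA rose by 0.99 ± 0.07 (adjusted p = 6.96e-08) and 1.57 ± 0.07 (adjusted p = 5.93e-10) with KCl. It fell by 0.23 ± 0.07 (adjusted p = 0.0162) and 0.44 ± 0.07 (adjusted p = 9.65e-05) with H2O2. The first of these falls was -0.19 without control replicate 1 (adjusted p = 0.109).

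Footprints of Amd1 cannot be read from its own row alone, because Amd2, a near-identical copy, shares them. Amd2 held 45.3 to 78.9% of the footprint counts of the pair in the 10 footprint libraries, but 0.490 to 1.68% of their RNA counts in the 16 RNA libraries. Amd1 footprints alone were at 26.0 and 21.8 TPM in the control, 62.5 and 93.4 TPM at 2 h of KCl and 62.1 and 130 TPM at 7 h. After H2O2 they were at 7.80 and 11.5 TPM at 2 h, on 12 and 61 counts, and at 6.58 and 9.25 TPM at 7 h. Amd2 footprints followed the same order of groups against the control at 7 h, with 129 and 157 TPM under KCl and 18.9 and 17.6 TPM under H2O2 against 23.6 and 44.7 TPM.

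With the counts of both copies summed, footprints rose by 1.43 ± 0.25 at 2 h of KCl (adjusted p = 0.00508) and 2.08 ± 0.25 at 7 h (adjusted p = 0.000223). They fell by 1.26 ± 0.27 at 7 h of H2O2 (adjusted p = 0.00336) and were at -0.61 ± 0.26 at 2 h (adjusted p = 0.26). The Amd1 row alone gave 1.76 ± 0.34, 2.05 ± 0.34 and -1.71 ± 0.41, called in the same 3 comparisons. Without replicate 2 of 2 h of KCl the Amd1 row gave 1.38 (adjusted p = 0.0888), and without replicate 1 of 7 h of H2O2 it gave -1.48 (adjusted p = 0.0675). No efficiency change was called for the sum, with values of -0.42, -0.80, 0.43 and 0.55 and adjusted p from 0.0922 to 0.353. For the Amd1 row alone the values under H2O2 were -0.94 ± 0.42 (adjusted p = 0.156) and -1.25 ± 0.44 (adjusted p = 0.0861), and the second passed with DESeq2 (adjusted p = 0.0405), with only the groups compared (adjusted p = 0.0114) and with the replicate number as a block (adjusted p = 0.0208). The first passed with the block alone (-1.11, adjusted p = 0.0324).

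Sat1, which opens polyamine breakdown, rose in RNA and footprints together under both stresses. Its RNA was at 214 and 209 TPM in the control, 327 and 314 TPM at 2 h and 454 and 454 TPM at 7 h of H2O2. With KCl it was at 537 and 558 TPM at 2 h and 921 and 944 TPM at 7 h. None of these 5 groups overlapped another. RNA rose by 0.62, 1.19, 1.47 and 2.24 (each ± 0.06, adjusted p from 5.7e-07 to 2.97e-12).

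Sat1 footprints were at 80.4 and 52.5 TPM in the control, 99.9 and 125 TPM at 2 h and 126 and 145 TPM at 7 h of H2O2. With KCl they were at 210 and 114 TPM at 2 h and 487 and 449 TPM at 7 h. All 8 stress libraries lay above both controls. Footprints rose by 1.14 ± 0.22 and 1.08 ± 0.22 with H2O2 (adjusted p = 0.0207 and 0.00266). With KCl they rose by 1.37 ± 0.22 (adjusted p = 0.00349) and 2.68 ± 0.22 (adjusted p = 1.22e-05), the last a level 6.41-fold higher.

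The KCl calls of Sat1 footprints held in all 11 alternatives. The call at 2 h of H2O2 was lost without control replicate 1 (1.18, adjusted p = 0.108), control replicate 2 (1.10, adjusted p = 0.131) or H2O2 replicate 2 (1.06, adjusted p = 0.0836), with only the groups compared (adjusted p = 0.134) and on TPM (0.77, adjusted p = 0.231). That at 7 h was 0.81 without H2O2 replicate 2 (adjusted p = 0.057). Efficiency was not called at any of the 4 time points, at 0.48, -0.08, -0.11 and 0.48 with adjusted p from 0.135 to 0.847, and passed with DESeq2 at 2 h of H2O2 (0.51, adjusted p = 0.0269) and 7 h of KCl (0.47, adjusted p = 0.0397).

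Of the 2 synthases that build the longer polyamines, Srm fell in RNA at 7 h of KCl and in footprints at 7 h of H2O2, and Sms rose in RNA at 2 h of KCl. Srm RNA was at 246 and 267 TPM in the control and at 124 and 100 TPM at 7 h of KCl, a fall of 1.09 ± 0.09 (adjusted p = 1.11e-07). Srm footprints at 7 h of KCl were at -0.54 ± 0.23 (adjusted p = 0.11) and efficiency at 0.58 ± 0.26 (adjusted p = 0.197), neither called. At 7 h of H2O2 it was at 298 and 285 TPM, a rise of 0.27 ± 0.09 (adjusted p = 0.0133), while its footprints, at 187 and 216 TPM against 273 and 346 TPM, fell by 0.73 ± 0.23 (adjusted p = 0.03). Efficiency there fell by 0.98 ± 0.26 (adjusted p = 0.0232). RNA at that time lay above the control in both libraries and footprints below it in both.

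The 7 h H2O2 calls of Srm were lost in several alternatives. The RNA rise was 0.21 without control replicate 1 (adjusted p = 0.111), 0.15 without H2O2 replicate 1 (adjusted p = 0.246) and 0.19 on TPM (adjusted p = 0.093). The footprint change was -0.52, -0.62 and -0.95 without control replicate 2, H2O2 replicate 1 and H2O2 replicate 2 (adjusted p = 0.218, 0.175 and 0.0512), and -0.61 on TPM (adjusted p = 0.0652). The efficiency call was lost in 7 of 16 alternatives, with values from -1.19 to -0.76, among them the omission of footprint control replicate 2 (adjusted p = 0.1), footprint H2O2 replicate 1 (adjusted p = 0.0917) or any RNA library (adjusted p = 0.0598 to 0.0885).

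Sms, the synthase of spermine, was the least abundant member in RNA, at 24.7 to 37.8 TPM in the libraries of this experiment. It rose by 0.38 ± 0.07 at 2 h of KCl (adjusted p = 0.000652), from 29.8 and 30.2 TPM to 35.4 and 37.8 TPM. Its RNA at 7 h of H2O2 was at -0.15 ± 0.07 (adjusted p = 0.0959), which passed with the size factors of DESeq2 (-0.18, adjusted p = 0.0467), on TPM (-0.21, adjusted p = 0.0356) and with only the groups compared (-0.20, adjusted p = 0.0107). Srm RNA at 2 h of KCl, at -0.20 ± 0.09 (adjusted p = 0.0734), passed with no filter (-0.21, adjusted p = 0.0131), on TPM (-0.30, adjusted p = 0.0197) and without KCl replicate 1 (-0.27, adjusted p = 0.0339). No footprint or efficiency change of Sms was called, with footprint values between -0.46 and 0.38. Its efficiency at 2 h of H2O2 was called only without footprint replicate 2 of that time (-1.09, adjusted p = 0.0292).

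**Figure D3:**
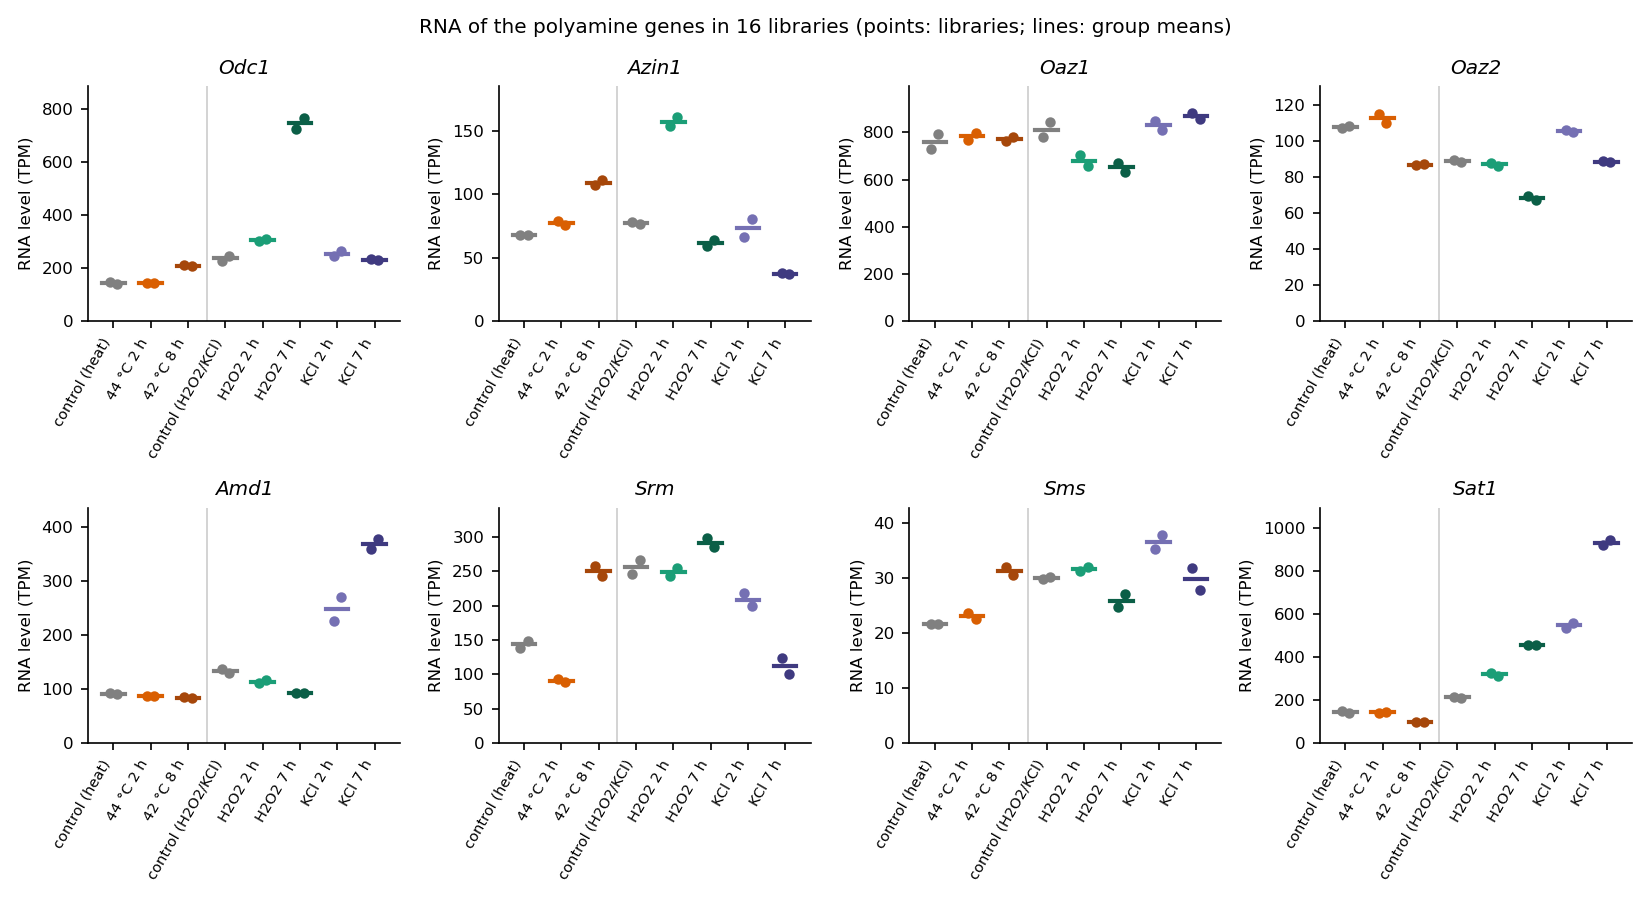
RNA level in TPM (y axis, from 0) of each gene in the 8 RNA groups, heat with its control on the left and H2O2 and KCl with theirs on the right; points are the 2 libraries and lines their mean. Odc1 is highest at 7 h of H2O2 (726 and 767 TPM), Sat1 and Amd1 at 7 h of KCl (921 and 944 TPM, 359 and 378 TPM), and Azin1 at 2 h of H2O2 (154 and 161 TPM).

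Under heat the 2 regimes differed in these genes. At 42 °C for 8 h Odc1, Srm and Sms rose, and Amd1 was not called. Odc1 was at 212 and 208 TPM against 149 and 142 TPM in the heat control, Srm at 258 and 243 TPM against 139 and 149 TPM, and Sms at 32.0 and 30.6 TPM against 21.7 and 21.7 TPM. Odc1 rose by 0.72 ± 0.04 (adjusted p = 5.04e-09), Srm by 0.99 ± 0.05 (adjusted p = 9.66e-10), Sms by 0.72 ± 0.05 (adjusted p = 6.04e-08) and Azin1 by 0.85 ± 0.04 (adjusted p = 6.88e-10). Sat1, the breakdown enzyme, fell by 0.36 ± 0.05 (adjusted p = 1.76e-05), from 148 and 141 TPM to 98.6 and 98.3 TPM. These 5 calls held in all 11 alternatives of scaling, filter, test, design or left-out library, but each change was under 1 on the log2 scale. On TPM the fall of Sat1 was larger, at -0.55, and still called.

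At 44 °C for 2 h the one sizeable change was in Srm. It was at 93.0 and 88.7 TPM, below the control libraries, and fell by 0.73 ± 0.05 (adjusted p = 2.14e-08). Between the 2 regimes Srm was 1.72 ± 0.05 higher at 42 °C (adjusted p = 2.61e-12), Odc1 0.78 ± 0.04 higher (adjusted p = 7.48e-10) and Azin1 0.75 ± 0.04 higher (adjusted p = 7.81e-10), the last 0.50 on TPM (adjusted p = 1.84e-06). The regimes differ in both temperature and time, which cannot be told apart here.

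The smaller heat calls rested on the scaling or on single libraries. On TPM the median of all genes tested shifted by -0.15 at 42 °C against the control and by -0.20 against 44 °C, relative to the TMM scale. Oaz1 at 42 °C rose by 0.21 ± 0.05 (adjusted p = 0.00144) but was at 0.02 on TPM (adjusted p = 0.719), and Amd1, at 0.06 ± 0.04 (adjusted p = 0.222), was called lower at -0.13 on TPM (adjusted p = 0.0185). Oaz2 fell by 0.12 ± 0.04 at 42 °C (adjusted p = 0.0187), lost without any single library (-0.13 to -0.12, adjusted p = 0.0721 to 0.0929), and was at -0.31 on TPM (adjusted p = 7.62e-05). At 44 °C Azin1 rose by 0.10 ± 0.04 (adjusted p = 0.0487), lost without control replicate 1 or 2 or heat replicate 1 (0.10, 0.09 and 0.07, adjusted p = 0.13, 0.192 and 0.194), and was at 0.18 on TPM (adjusted p = 0.00311). Amd1 fell by 0.14 ± 0.04 there (adjusted p = 0.00841), and was at -0.12 without control replicate 1 (adjusted p = 0.0796) and -0.07 on TPM (adjusted p = 0.122).

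Counts of members are read against the share of all genes called, which was high in RNA. At 44 °C 1 member was called higher and 2 lower, against 35.4% and 35.7% of genes tested. At 42 °C 5 were higher and 2 lower, against 31.7% and 31.9%. Between the regimes all 8 were called in either direction, against 75.1% of genes.

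With H2O2, 3 members were higher and 2 lower at 2 h (27.3% and 26.5% of genes tested), and 3 higher and 4 lower at 7 h (39.4% and 31.1%). With KCl, 5 were higher and 0 lower at 2 h (27.2% and 27.0%), and 3 higher and 2 lower at 7 h (37.2% and 31.6%). With 8 members, these RNA counts are of the order of the background and carry little beyond the genes named. The direct tests called 7 members between 2 h and 7 h of H2O2 (73.4% of genes), 6 between those of KCl (68.8%), 7 between H2O2 and KCl at 2 h (51.2%) and 8 at 7 h (78.4%). The 2 stresses share their control, and the direct test between them does not use it. In that test at 7 h Odc1 was 1.66 ± 0.06 higher (adjusted p = 8.87e-12) and Amd1 2.01 ± 0.08 lower (adjusted p = 1.03e-11) with H2O2 than with KCl. Sat1 was lower with H2O2, at -0.85 ± 0.06 at 2 h (adjusted p = 2.97e-08) and -1.05 ± 0.06 at 7 h (adjusted p = 3.92e-10), and Azin1 was 1.02 ± 0.08 higher at 2 h (adjusted p = 1.13e-07) and 0.68 ± 0.08 higher at 7 h (adjusted p = 2.15e-06). Srm was 1.35 ± 0.09 higher at 7 h (adjusted p = 4.83e-09).

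In footprints fewer genes were called. At 2 h of H2O2, 2 members were higher and 1 lower, against 1.14% and 0.768% of genes tested, and at 2 h of KCl 3 were higher and 1 lower, against 1.79% and 5.06%. At 7 h the counts were 3 higher and 3 lower with H2O2 (17.2% and 10.6%) and 2 higher and 1 lower with KCl (10.5% and 9.82%). From 2 h to 7 h, 2 members were called with H2O2 (29.8%) and 3 with KCl (20.6%). None of the 3 calls at 2 h of H2O2 remained without either control library.

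In translational efficiency 1 member was higher and 1 lower at 2 h of H2O2 (3.89% and 7.75% of genes tested), and 1 higher and 2 lower at 7 h (4.97% and 4.28%). With KCl 1 was higher and 1 lower at 2 h (3.65% and 9.23%). At 7 h of KCl 0 were called in either direction by edgeR (1.69% and 3.71%). There 3 members had an unadjusted p under 0.05 and DESeq2 called 1. The share of all genes at these settings is not given here, so nothing is read from those counts. From 2 h to 7 h, 1 member was called with H2O2 (7.71%) and 2 with KCl (6.94%).

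In unstressed cells the members also differed in how many footprints they carried per RNA. The median ratio of footprint to RNA TPM over 10939 genes was 0.602. Srm and Sms stood above it at 1.21 and 1.23, percentiles 84.6 and 85.2, and Odc1 and Azin1 near it at 0.732 and 0.712. Oaz1 stood at 0.212 (percentile 10.1), Oaz2 at 0.312 and Sat1 at 0.314. Amd1 stood at 0.179, or 0.432 with Amd2 added to it. The antizymes, breakdown enzyme and Amd1 were thus below the 2 synthases per RNA, as a description of 4 control libraries with no test.

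The genes whose RNA levels ran most like each member over the 12 stressed libraries, by Pearson r of log2 counts scaled to the library and taken relative to the own control, among 9305 genes, were none of the other members. For Odc1 they were Cars2 (r = 0.988), Pwp1 (0.986) and Gsto1 (0.986), and for Amd1 Phf6 (0.996), Wdr44 (0.992) and Phf3 (0.987). For Sat1 they were Nupr1 (0.966), Kdm5b (0.960) and Tlr2 (0.954), and for Azin1 Pdgfb (0.976), Klf10 (0.958) and Limd2 (0.955). Srm ran most like Ctps (0.988), Sms like Uchl3 (0.974), Oaz1 like Bod1 (0.969) and Oaz2 like Twist1 (0.975). The highest r between 2 members was 0.718, for Amd1 and Oaz2. These libraries share cell line and stress groups and differ in depth, so the values are descriptions.

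A list of 28 other polyamine genes, of which 24 were tested in RNA and 23 in footprints, covered precursor supply, breakdown, salvage of the by-product methylthioadenosine, hypusine formation and transport. Of the 24, 6 were called higher and 15 lower in RNA at 44 °C, where 35.4% and 35.7% of all genes tested were, and 8 and 7 at 42 °C (31.7% and 31.9%). With H2O2 7 were higher and 6 lower at 2 h (27.3% and 26.5% of genes), and 11 and 8 at 7 h (39.4% and 31.1%). With KCl 5 were higher and 4 lower at 2 h (27.2% and 27.0%), and 4 and 12 at 7 h (37.2% and 31.6%). Most of these counts are of the order of the background. The median log2 change of the tested genes lay between -0.23 at 44 °C and 0.11 at 7 h of H2O2, against -0.00034 and 0.08 over all genes tested.

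Among genes of arginine and amino acid supply, Slc7a1, Slc3a2 and Arg2 rose in RNA under H2O2, while the other arginase, Arg1, fell at 7 h. Slc7a1, which imports arginine, rose by 1.72 ± 0.07 at 2 h (adjusted p = 6.44e-11) and 1.22 ± 0.06 at 7 h (adjusted p = 5.82e-10) in RNA. Footprints of Slc7a1 were not called at either time. Slc3a2, the heavy chain of amino acid exchangers, rose in RNA by 1.72 ± 0.06 (adjusted p = 4.52e-11) and 1.63 ± 0.06 (adjusted p = 1.99e-11). Its efficiency fell by 0.62 ± 0.18 at 7 h (adjusted p = 0.0362), a call lost in 7 of 16 alternatives. Arg2, the arginase that makes ornithine in mitochondria, rose by 1.79 ± 0.28 at 2 h (adjusted p = 9.16e-05) and 4.91 ± 0.20 at 7 h of H2O2 (adjusted p = 2.88e-11), and 3.13 ± 0.24 at 7 h of KCl (adjusted p = 4.96e-08). On log2(TPM + 1) these RNA changes were smaller, at 0.95, 3.47 and 1.87, and all were called. Its footprints rose by 3.53 ± 0.56 at 7 h of H2O2 (adjusted p = 0.000462).

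At 7 h of H2O2 enzymes and carriers further along the pathway moved too. Smox, which oxidises spermine back to spermidine, rose by 2.16 ± 0.12 (adjusted p = 6.29e-10) in RNA. Azin2, a second antizyme inhibitor, rose by 2.05 ± 0.11 in RNA (adjusted p = 5.07e-10) and by 3.67 ± 0.50 in footprints (adjusted p = 0.000133). Atp13a2, a lysosomal polyamine exporter, rose by 1.70 ± 0.07 (adjusted p = 5.2e-11), while Slc18b1, a vesicular polyamine transporter, fell by 1.29 ± 0.09 (adjusted p = 9.84e-09). Arg1 fell by 1.85 ± 0.17 (adjusted p = 1.69e-07) and Sat2 by 1.09 ± 0.22 (adjusted p = 0.00049).

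With KCl the related carrier Atp13a3 rose in RNA by 0.90 ± 0.11 at 2 h (adjusted p = 8.57e-06) and 1.27 ± 0.11 at 7 h (adjusted p = 1.57e-07). Its efficiency fell by 1.92 ± 0.36 at 2 h (adjusted p = 0.00187), a call that held in all 16 alternatives. Mat2a, which makes S-adenosylmethionine, the substrate of Amd1, fell in efficiency by 1.60 ± 0.26 at 7 h of H2O2 (adjusted p = 0.00119) and in footprints by 1.32 ± 0.24 (adjusted p = 0.00142), both in all alternatives. Slc7a1 fell in efficiency by 1.05 ± 0.24 at 2 h of H2O2 (adjusted p = 0.00896), lost only with the fit of the groups compared (adjusted p = 0.0553). In heat, Paox, the acetylpolyamine oxidase, fell by 1.23 ± 0.09 (adjusted p = 2.98e-08) and the salvage enzyme Mri1 by 1.76 ± 0.09 (adjusted p = 4.83e-10) at 44 °C. At 42 °C Arg1 RNA rose by 1.18 ± 0.19 (adjusted p = 0.0001). RNA of Slc7a1 fell there by 0.92 ± 0.05 (adjusted p = 5.93e-09) and that of Sat2 by 0.91 ± 0.16 (adjusted p = 0.000171). Of the 4 hypusine genes tested, 4 were called lower at 44 °C, against 35.7% of all genes, and 3 higher at 42 °C, against 31.7%, and with 4 genes nothing is read from these counts.

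**Figure D4:**
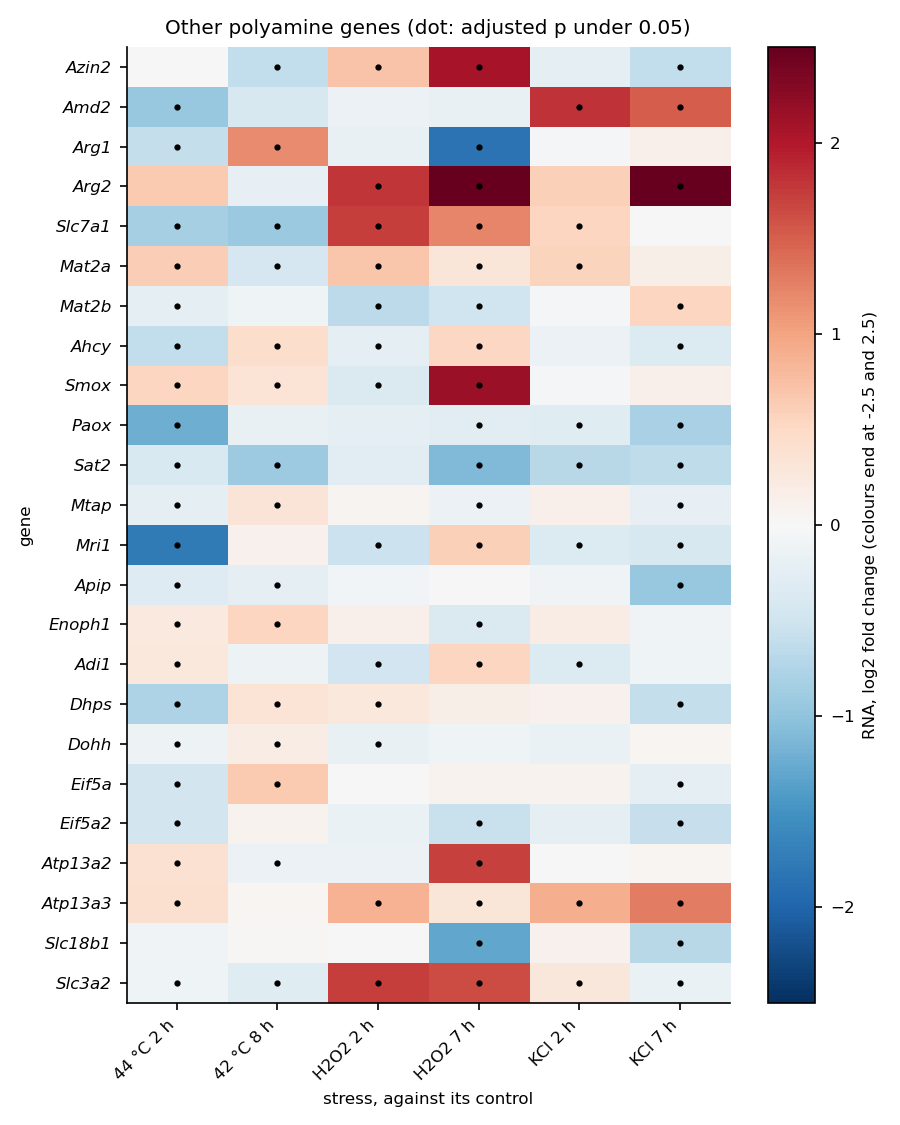
RNA log2 fold change (colour, ending at -2.5 and 2.5) of the 24 tested genes of the wider polyamine list (rows) in the 6 comparisons with a control (columns); a dot marks an adjusted p under 0.05. Arg2, Smox, Azin2 and Atp13a2 are red at 7 h of H2O2, and Mri1 and Paox blue at 44 °C.

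The series also holds calls of DoGs, transcripts that run on past the end of a gene, for 6399 pairs of neighbouring genes, of which 6 pairs held 5 of the members. Transcription past the end of Odc1 towards Hpcal1 was called in 7 of 16 libraries, 2 of them controls, and in all 4 libraries of 2 h of H2O2 and KCl. Transcription from Amh towards Oaz1 was called in 4 libraries, all stressed, and that from Nol10 towards Odc1 in 2. The remaining 3 pairs, with Amd1, Srm or Sms, were called in 1 or 2 libraries. Of the 16 libraries 12 were stressed, and the share of all 6399 pairs called in each library is not given here. Nothing particular to these genes is read from the DoG counts. No library had a read-in call, one that marks a neighbour's transcript reaching into a gene, for any of the 6 pairs.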

How the data were processed

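The authors deposited RSEM expected counts and TPM per gene for each library. Per the submitters' processing notes the build was mm10 and the tools were STAR, RSEM and Bowtie, with no version or role given. Calls of transcription past gene ends, and read-in estimates given as a ratio, were also deposited, and of the latter only the calls were used. In all, 12 columns of per-sample values that match no label were not used.

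The expected counts, whole numbers as deposited, were tested with edgeR 4.0.16 (R 4.3.3) by its quasi-likelihood test with TMM scaling, filterByExpr and Benjamini-Hochberg adjustment at 0.05. The heat experiment (6 RNA libraries, 12747 genes tested), the H2O2 and KCl experiment (10 RNA libraries, 13256 genes; 10 footprint libraries, 10545 genes) and translational efficiency (20 libraries, 10480 genes) were fitted separately. All groups of an experiment shared 1 estimate of spread, and in the efficiency fit both kinds of library shared it. Scripts were tested on simulated data.

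The alternatives were size factors of DESeq2, the DESeq2 1.42.0 test, limma 3.58.1 on log2(TPM + 1), voom for efficiency, no filter, only the groups compared, a replicate block, a minimum log2 change of 1 (for counts of members only), Amd2 added to Amd1, and each library left out. Other polyamine genes could be named where called with an absolute log2 change of at least 1, or among the 3 of the list with the largest called change. The text prints a part of the results that meet this rule. Members and lists were chosen with earlier results of these data known.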

Additional observations from a re-analysis of the deposited data

Results flagged for a closer look

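Differences between 7 h and 2 h of the same stress passed edgeR's quasi-likelihood test for 21 results. In RNA with H2O2, the 7 h minus 2 h log2 change was 1.37 for Odc1, -0.26 for Oaz2, -1.29 for Azin1, -0.21 for Amd1, 0.31 for Srm, -0.22 for Sms and 0.56 for Sat1. In RNA with KCl it was -0.25 for Oaz2, -0.95 for Azin1, 0.58 for Amd1, -0.89 for Srm, -0.28 for Sms and 0.77 for Sat1.

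In footprints with H2O2 it was 2.54 for Odc1 and -1.99 for Azin1. In footprints with KCl it was 1.26 for Odc1, -1.48 for Oaz2 and 1.31 for Sat1. In translational efficiency it was 1.20 for Odc1 with H2O2, and 1.42 for Odc1 and -1.20 for Oaz2 with KCl.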

How the results depend on the processing

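Alternatives were compared for member results called in the reported fit or in at least one alternative, a rule set after the changes of sign were known, and the text prints a part of these values. Over 99 called results, leaving out 1 library at a time gave 436 values, of which 340 kept their direction and call, 96 kept only their direction and 0 changed sign. The other alternatives gave 703 values, of which 672 kept both, 29 kept only the direction and 2 changed sign. On log2(TPM + 1) with limma, Oaz1 and Amd1 at 42 °C against 44 °C were -0.0234 and -0.0514, and the uncalled Amd1 value at 42 °C against the control was -0.13, all of opposite sign; the scaling shift of all genes there was -0.20 and -0.15. It was 0.10 in footprints at 7 h of H2O2 and 0.18 in footprints at 7 h against 2 h of H2O2.

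With a log2 change of at least 1 also required, called members in RNA numbered 0 at 44 °C, 0 at 42 °C, 1 between them, 1 (2 h) and 2 (7 h) under H2O2, 1 (2 h) and 3 (7 h) under KCl, 2 and 0 between the times of H2O2 and KCl, and 2 and 4 between the stresses at 2 h and 7 h. In efficiency they numbered 2 (2 h) and 1 (7 h) under H2O2, 1 (2 h) and 0 (7 h) under KCl, and 1 and 2 between the times of H2O2 and KCl. In footprints they numbered 3 and 4 under H2O2, 4 and 2 under KCl, and 2 and 3 between the times. At 2 h of H2O2 in footprints 0 were called by limma on TPM and 0 with only the groups compared. Efficiency calls numbered 1 at 7 h of H2O2 by limma on TPM, 1 at 7 h of KCl by DESeq2, and 1 at 2 h of KCl with no filter, on TPM, by voom and with only the groups compared. Between the times of H2O2 they numbered 2 with no filter, 4 by DESeq2 and 0 with only the groups compared. The share of all genes called at each of these settings is not given here. Counts in this section therefore show only how the member calls depend on the processing.

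Leaving out 1 library gave 1 to 3 called members in RNA at 44 °C and 4 to 7 between the times of H2O2. In footprints it gave 0 to 2 at 2 h and 3 to 4 at 7 h of H2O2, and 2 to 3 at 2 h of KCl. In efficiency it gave 0 to 2 at 7 h of H2O2, 1 to 2 at 2 h of KCl, 0 to 2 between the times of H2O2 and 1 to 3 between those of KCl.

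With the replicate number as a block, 4 of 23 counts of members differed, and the calls summed to 103 against 99 without it. The count rose from 1 to 2 for efficiency between the times of H2O2. Deviations of same-numbered libraries correlated at -0.126 to 0.170 over 13 pairs of groups in RNA. In footprints they correlated at 0.202 to 0.435 over the 6 pairs without 2 h of H2O2, and at -0.405 to -0.0398 over the 4 pairs with it. The labels do not say what a number stands for, and whether it pairs the footprint libraries was not settled. Footprint depth limits Amd1, Oaz2 and Sms most, with counts as low as 12, 31 and 29 in a library.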
